A study of Mus musculus with 119 samples.

Results

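The comparison described here was made between muscle stem cells of young mice with low surface CD34 (CD34Lo) and with high surface CD34 (CD34Hi), in the second of 13 experiments of the series. Its members were taken from the sample labels and number 8 of 119 samples, with 4 young CD34Lo and 4 young CD34Hi libraries. All were wild type (WT), from resting, uninjured skeletal muscle, with no treatment and no culture after the sort. The age in months was not given in the sources used here. Dissociated muscle was depleted of cells carrying CD45, CD31 or Sca-1, and flow cytometry then took cells bearing both α7-integrin and CD34. The same experiment held 7 WT libraries labelled adult, 4 CD34Lo and 3 CD34Hi, which served for the comparison of ages. Whether each library came from its own animal is not stated in the labels. The p-values therefore refer to the spread among libraries, part of which may be technical.

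Satellite cells are the stem cells of skeletal muscle. They lie between the fibre and its basal lamina, carry the transcription factor Pax7, and remain out of the cell cycle until the muscle is injured. CD34 is a sialomucin of their surface that falls when they activate. On leaving quiescence they express Myod1, and differentiation proceeds under the basic helix-loop-helix factor myogenin (Myog), which binds E-boxes, with fusion into fibres by the membrane protein myomaker (Tmem8c, now named Mymk) and assembly of the sarcomere by actins, troponins and kelch proteins.

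The sequences before the RefSeq start of 3 genes of muscle differentiation or contraction that were higher in CD34Lo are shown because the text returns to them as a group. They are the 250 bases before the start that RefSeq annotates, from its table on GRCm38.p6, written in the direction of transcription. GENCODE places some starts further upstream, so that 15 bases of the Myog window and all 250 of the Actc1 window lie inside the gene as GENCODE annotates it, the latter with 12 bases in exons. Capitals mark E-boxes (CANNTG), a MEF2 site or a CArG box. The windows are chr1:134289754-134290003 on the plus strand for Myog, chr2:69669870-69670119 on the plus strand for Klhl41 and chr2:114052876-114053125 on the minus strand for Actc1.
Myog: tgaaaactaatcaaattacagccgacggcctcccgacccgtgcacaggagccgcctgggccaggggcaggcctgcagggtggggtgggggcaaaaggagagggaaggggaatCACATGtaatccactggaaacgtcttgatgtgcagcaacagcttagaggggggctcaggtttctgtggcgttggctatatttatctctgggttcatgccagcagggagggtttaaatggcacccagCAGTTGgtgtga
Klhl41: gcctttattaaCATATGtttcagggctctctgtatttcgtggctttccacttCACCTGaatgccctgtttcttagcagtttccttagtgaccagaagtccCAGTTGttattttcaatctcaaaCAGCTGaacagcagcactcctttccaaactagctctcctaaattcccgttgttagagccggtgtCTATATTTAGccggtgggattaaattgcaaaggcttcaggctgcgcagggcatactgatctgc
Actc1: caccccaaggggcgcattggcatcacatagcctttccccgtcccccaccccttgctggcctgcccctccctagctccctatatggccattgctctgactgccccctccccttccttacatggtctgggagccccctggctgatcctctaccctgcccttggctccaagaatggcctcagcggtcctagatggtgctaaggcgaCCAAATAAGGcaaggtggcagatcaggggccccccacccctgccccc
Myog held 2 E-boxes and Klhl41 held 4, 1 of them with the form CAGCTG. Of all 32851 windows in the table, 66.2% held an E-box and 13% held CAGCTG. Klhl41 also held a MEF2 site, a motif present in 2.9% of windows. It was searched as YTAWWWWTAR, where Y is C or T, W is A or T and R is A or G. The Myog window holds ctatatttat, which differs from that form only in its last base and is therefore not marked. Actc1 held a CArG box, the motif bound by serum response factor, present in 1.5% of windows, and no E-box. Windows were found for 22 of the genes that differed between the gates, in either direction. Of these genes, 15 held an E-box, 7 CAGCTG, 1 a MEF2 site and 2 a CArG box. The other CArG box was in Actg1, which was lower in CD34Lo. CAGCTG was in Klhl41, Tnnt2 and Acta2, which were higher, and in Tspan7, Kcne4, Alpl and Neu2, which were lower. All 4 motifs read the same on both strands as they were searched, and each CAGCTG is also counted as an E-box. A match describes letters and not binding, and no factor was measured on these windows.

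The 8 young libraries held 5.18 M to 8.91 M counts over 24421 gene symbols, and 12857 genes had enough counts to be tested. Young CD34Lo replicate 4 correlated with the other 3 libraries of its group at 0.847 to 0.860 (Pearson's r of log2 CPM across genes), while those 3 correlated with one another at 0.957 to 0.966 and the CD34Hi libraries at 0.923 to 0.961. Ribosomal protein genes took 8.73% of its counts, against 2.70% to 3.12% in the other CD34Lo libraries. The comparison by gene took the 6114 tested genes averaging at least 20 CPM over the 8 young libraries. Of these, 432 lay more than 4-fold above and 345 more than 4-fold below the median of the other 3. Every other young library had 0 to 6 genes in each direction. All results are therefore given with and without this library.

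The labels were checked on Cd34 and on satellite cell markers. Cd34, on chromosome 1 at 194938819 to 194961279 of mm10, stood at 199.6, 257, 211 and 252 CPM (counts divided by the scaled library total in M) across the 4 CD34Hi libraries, in replicate order, and at 89.3, 96.3, 88.6 and 81.1 CPM across the 4 CD34Lo libraries. The groups did not overlap, and the transcript was 2.59-fold lower in CD34Lo (log2 fold change -1.37, SE 0.17, adjusted p = 0.000819). Since the gate was set on the CD34 protein, this checks the labels. Pax7 was present in every library, at 17.4, 17.3, 28.7 and 9.33 CPM in CD34Hi and 29.7, 23.7, 35.9 and 26 CPM in CD34Lo. These ranges overlapped (adjusted p = 0.665). Myf5, a determination factor already on in satellite cells, averaged 431 ± 114 CPM (SD, n = 4) in CD34Hi and 437 ± 61.9 CPM (SD, n = 4) in CD34Lo (adjusted p = 0.989). Myod1 averaged 2351 ± 255 CPM (SD, n = 4) and 1831 ± 325 CPM (SD, n = 4) (adjusted p = 0.693). Calcr, the calcitonin receptor of quiescent satellite cells, averaged 213 ± 38.2 CPM (SD, n = 4) and 202 ± 75.2 CPM (SD, n = 4) (adjusted p = 0.967). All 12 satellite cell markers checked were detected in young libraries. Their summed level was 11672 to 12373 CPM in CD34Hi, 10389 to 11394 CPM in CD34Lo replicates 1 to 3 and 6978 CPM in CD34Lo replicate 4.

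In young cells, 30 genes (0.233% of those tested) differed between the gates, 15 higher in CD34Lo (0.117%) and 15 lower (0.117%), by edgeR's quasi-likelihood test with Benjamini-Hochberg adjustment at 0.05. By fitted log2 fold change the higher genes were led by Tmem8c, Myog, Tnnt2, Actc1 and St8sia5, and the lower genes by Fgfr2, Calcrl, Neu2, Alpl and Ryr3. The lower genes included Cd34, whose protein set the gate. An unadjusted p under 0.05 was reached by 917 genes. For all 30 genes, no CD34Lo library overlapped any CD34Hi library, which held for 1.8% of tested genes in the higher direction and 2.6% in the lower. Without CD34Lo replicate 4 these shares were 5.81% and 5.46%. The 30 genes were chosen by a test on these same libraries, so their separation is no added support. In the fit without that library the count rose to 75 (0.586%), 28 higher (0.219%) and 47 lower (0.367%), and 29 of the 30 genes were among them. Only Gm16897 was lost (adjusted p = 0.0519).

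**Figure D1:**
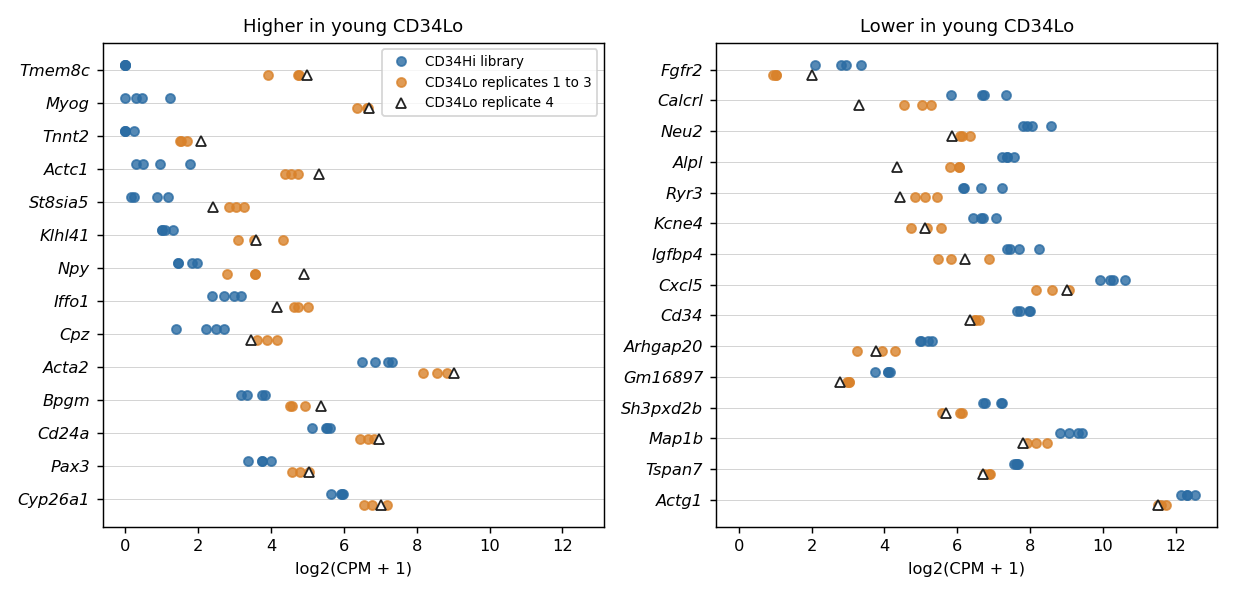
Levels of 29 of the 30 genes past the threshold in each of the 8 young libraries, as log2(CPM + 1) on the horizontal axis, with CD34Hi libraries in blue, CD34Lo replicates 1 to 3 in orange and CD34Lo replicate 4 as an open triangle. No CD34Lo point overlaps the CD34Hi points of the same gene, and the triangle lies on the CD34Lo side for all 29 genes.

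Genes of muscle differentiation stood furthest apart. Tmem8c had no counts in any of the 4 CD34Hi libraries. In CD34Lo it stood at 26, 26.4, 14.2 and 31 CPM, from 624 counts in all. Against the level that 3 counts over the CD34Hi group would give, 0.102 CPM, the CD34Lo mean was at least 238-fold higher (adjusted p = 2.53e-05). Myog stood at 0.379, 0, 0.229 and 1.33 CPM in CD34Hi and at 101, 97.8, 81.7 and 103 CPM in CD34Lo (log2 fold change 7.75, SE 0.63, adjusted p = 9.2e-06). Its 4 CD34Lo libraries thus lay within a narrow range, replicate 4 included, while 1 CD34Hi library had no count. Tmem8c lies on chromosome 2 at 27061636 to 27072179, and Myog on chromosome 1 at 134289989 to 134292548.

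Sarcomere genes rose as well, 3 in number. Actc1, the cardiac α-actin that is also made in immature skeletal muscle, stood at 2.4, 0.405, 0.229 and 0.952 CPM in CD34Hi and at 22.6, 25.5, 19.9 and 38.7 CPM in CD34Lo (log2 fold change 4.72, SE 0.61, adjusted p = 0.00155). Klhl41, a kelch protein needed for sarcomere integrity, stood at 1.01, 1.49, 1.03 and 1.14 and 7.47, 19.3, 10.7 and 10.9 CPM (log2 fold change 3.36, SE 0.50, adjusted p = 0.00705). Tnnt2, the cardiac troponin T that is also found in developing skeletal muscle, stood at 0, 0, 0 and 0.19 and 2.24, 1.91, 1.82 and 3.24 CPM (log2 fold change 5.39, SE 0.97, adjusted p = 0.0352). Actc1 was called in every omission of a young library, Klhl41 in 7 of 8 and Tnnt2 only in the omission of CD34Lo replicate 4. For Tnnt2 the CD34Hi libraries held close to no counts, and its fold change depends on the prior count of the fit.

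Acta2, the smooth muscle α-actin, was the other contractile gene to rise. It stood at 160.3, 146, 116 and 88.8 CPM in CD34Hi and 373, 453, 286 and 516 CPM in CD34Lo (log2 fold change 1.67, SE 0.25, adjusted p = 0.00837), so its lowest CD34Lo library lay well above its highest CD34Hi library. Actg1, the cytoplasmic γ-actin, moved the other way, from 5864, 4525, 5046 and 5062 CPM in CD34Hi to 3413, 3097, 2934 and 2910.1 CPM in CD34Lo (log2 fold change -0.73, SE 0.13, adjusted p = 0.0296). Reads of near-identical actin genes can be assigned to the wrong member, and how the submitters treated such reads is not given in the sources used here. Actc1 lies on chromosome 2 at 114047282 to 114053548, Acta2 on chromosome 19 at 34241090 to 34255590 and Actg1 on chromosome 11 at 120345690 to 120348542.

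A transcription factor of the muscle lineage and an enzyme of retinoic acid were higher. Pax3, the paralogue of Pax7 that marks a share of satellite cells, stood at 15, 12.4, 12.5 and 9.33 CPM in CD34Hi and at 26.7, 22.8, 32 and 32 CPM in CD34Lo (log2 fold change 1.20, SE 0.23, adjusted p = 0.0352). Cyp26a1, which degrades retinoic acid, stood at 60.2, 60.5, 62 and 48.9 and 92.3, 109, 143 and 129 CPM (log2 fold change 1.03, SE 0.19, adjusted p = 0.0352). The ratio of the CD34Lo mean to the CD34Hi mean was 2.3 for Pax3 and 2.04 for Cyp26a1.

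A further 6 higher genes had varied roles. Cd24a, a surface glycoprotein, stood at 45.8, 48.5, 33.7 and 44.2 CPM in CD34Hi and 85.8, 113, 101 and 124 CPM in CD34Lo (log2 fold change 1.30, SE 0.26, adjusted p = 0.0498). Iffo1, an intermediate filament family member, stood at 5.56, 7.97, 4.23 and 6.86 and 23.7, 31.1, 25.8 and 16.8 CPM (log2 fold change 1.99, SE 0.29, adjusted p = 0.00679). Bpgm, the bisphosphoglycerate mutase, stood at 8.09, 13.4, 9.15 and 12.6 and 29.5, 23.1, 21.8 and 40.6 CPM (log2 fold change 1.41, SE 0.26, adjusted p = 0.0304). All 3 were separated by gate in replicate 4 as in the others. The neuropeptide gene Npy stood at 2.91, 2.57, 1.72 and 1.71 and 10.8, 5.87, 10.8 and 28.8 CPM (log2 fold change 2.63, SE 0.49, adjusted p = 0.0352), and its highest value was that of replicate 4. St8sia5, a sialyltransferase, stood at 1.26, 0.811, 0.114 and 0.19 and 7.29, 6.25, 8.64 and 4.26 CPM (log2 fold change 3.41, SE 0.65, adjusted p = 0.0473). Cpz, a carboxypeptidase, stood at 1.64, 5.54, 4.57 and 3.62 and 11.2, 17, 13.7 and 9.94 CPM (log2 fold change 1.75, SE 0.33, adjusted p = 0.0373). These last 3 were low in CD34Hi, at most 5.54 CPM in any library.

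The enzyme genes Neu2 and Alpl were lower. Neu2, a cytosolic sialidase, stood at 377, 267, 240.1 and 222 CPM in CD34Hi and at 79.98, 69.6, 65.9 and 56.6 CPM in CD34Lo (log2 fold change -2.02, SE 0.24, adjusted p = 0.000819). Alpl, the tissue-nonspecific alkaline phosphatase, stood at 163, 148, 163 and 186 and 54.6, 64.9, 64.9 and 19.3 CPM (log2 fold change -1.69, SE 0.29, adjusted p = 0.018). Both were lower in all 4 CD34Lo libraries, and replicate 4 was the lowest for each. Neu2 was called in all 8 omissions of a young library and Alpl in 5, with an adjusted p of up to 0.071 without CD34Hi replicate 4.

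Receptors and a receptor ligand were lower. Calcrl, the receptor subunit for calcitonin gene-related peptide and adrenomedullin, stood at 55.6, 106, 102 and 159.6 CPM in CD34Hi and at 32, 38.1, 22.2 and 8.92 CPM in CD34Lo (log2 fold change -2.06, SE 0.39, adjusted p = 0.0352). Fgfr2, a fibroblast growth factor receptor, stood at 3.29, 6.76, 6.06 and 9.33 and 0.934, 1.02, 1.02 and 3.04 CPM (log2 fold change -2.11, SE 0.41, adjusted p = 0.0438). The chemokine gene Cxcl5 stood at 1555, 969, 1248 and 1176 and 536, 390.1, 287 and 515 CPM (log2 fold change -1.52, SE 0.25, adjusted p = 0.0166). Replicate 4 was the lowest of its group for Calcrl and the highest for Fgfr2, so that it stretched the CD34Lo spread in opposite directions.

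Igfbp4, which binds insulin-like growth factors outside the cell, stood at 165, 303, 175 and 206 CPM in CD34Hi and at 56.1, 117, 43.2 and 72.8 CPM in CD34Lo (log2 fold change -1.55, SE 0.29, adjusted p = 0.0358). Ryr3, a calcium release channel, stood at 71.9, 70.8, 99.3 and 149.7 and 27.7, 33.7, 42.3 and 20.5 CPM (log2 fold change -1.65, SE 0.28, adjusted p = 0.0167). Kcne4, a potassium channel subunit, stood at 103, 85.8, 134 and 99.4 and 35.3, 25.4, 45.7 and 33.5 CPM (log2 fold change -1.59, SE 0.25, adjusted p = 0.0113). All 3 were close to 3-fold lower in CD34Lo, at 2.94-fold, 3.14-fold and 3.02-fold.

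The others belong to the cytoskeleton and the cell membrane. Arhgap20, a GTPase-activating protein, stood at 38.6, 31.1, 30.5 and 35.6 CPM in CD34Hi and 8.6, 18.6, 14.3 and 12.8 CPM in CD34Lo (log2 fold change -1.31, SE 0.26, adjusted p = 0.0447). Sh3pxd2b, an adaptor of podosomes, stood at 147, 107, 149.6 and 103 and 46.5, 65.9, 69 and 51.1 CPM (log2 fold change -1.12, SE 0.20, adjusted p = 0.0296). Map1b, a microtubule-associated protein, stood at 538, 448, 641 and 692 and 288, 239, 350.1 and 223 CPM (log2 fold change -1.08, SE 0.21, adjusted p = 0.0373). The fall was smaller in the tetraspanin gene Tspan7, which had little spread within groups. It stood at 194, 187, 202 and 200.2 CPM in CD34Hi and 119, 105, 116 and 104 CPM in CD34Lo (log2 fold change -0.82, SE 0.15, adjusted p = 0.0298).

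Several of these genes share exonic bases with a neighbour, and reads of both partners cannot be told apart there from the deposited counts. For partners on opposite strands, the amplification kit named in the labels, where used, does not mark the strand. Ctbp2 lies on the same strand as Fgfr2, and the microRNA genes on that of Actg1, so strand would not separate those reads. Gm16897, on chromosome 1 at 194955759 to 194976960, is annotated as antisense and shares 148 exonic bases with Cd34. It stood at 12.4, 16.8, 16.2 and 16 CPM in CD34Hi and 7.1, 6.89, 7.16 and 5.88 CPM in CD34Lo (log2 fold change -1.18, SE 0.24, adjusted p = 0.0498). Reads in and outside the shared bases were not separated here, so its values are uncertain. Iffo1 shares 68 exonic bases with Gapdh, which averaged 628 ± 93.9 CPM (SD, n = 4) in CD34Hi and 672 ± 121 CPM (SD, n = 4) in CD34Lo. Neu2 shares 123 with Ngef, which averaged 2.51 ± 0.983 CPM (SD, n = 4) and 1.81 ± 1.43 CPM (SD, n = 4). Ryr3 shares 916 with Aven, at 1.67 ± 1.3 CPM (SD, n = 4) and 2.06 ± 1.08 CPM (SD, n = 4), and Fgfr2 shares 314 with Ctbp2, at 61.4 ± 3.08 CPM (SD, n = 4) and 50.8 ± 6.81 CPM (SD, n = 4). For these 4 partners the gates overlapped. St8sia5 and Arhgap20 also share exonic bases with a noncoding neighbour, and Actg1 with microRNA genes.

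Replicate 4 decided which further genes passed. Without it 46 more genes were called, 13 higher and 33 lower in CD34Lo, and none of the 75 had the opposite sign with all libraries. Gal, which encodes the neuropeptide galanin, stood at 5891, 3283, 4100.3 and 3876 CPM in CD34Hi. Its level was 1251, 1109 and 1081 CPM in the first 3 CD34Lo replicates, and 4057 CPM in the fourth. Gal was lower without replicate 4 (log2 fold change -1.89, SE 0.18, adjusted p = 2.09e-05), and with it the adjusted p was 0.34. Its CD34Lo replicates 1 to 3 thus lay far below the CD34Hi libraries. Nppc, the gene of C-type natriuretic peptide, stood at 470.1, 253, 261 and 307 CPM in CD34Hi and 160.1, 113 and 114 CPM in CD34Lo replicates 1 to 3, but at 825 CPM in replicate 4 (adjusted p = 0.0425 without it and 0.98 with it). The chemokine gene Cxcl3 stood at 1561, 884, 958 and 876 CPM, at 556, 407 and 411 CPM and, in replicate 4, at 1057 CPM (adjusted p = 0.0052 and 0.462). For Gal, Nppc and Cxcl3 replicate 4 lay inside or above the CD34Hi range.

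The cytokine genes behaved less unevenly. Il33 averaged 221 ± 79.7 CPM (SD, n = 4) in CD34Hi and 68.2 ± 19.9 CPM (SD, n = 3) in CD34Lo without replicate 4, where it had 91.6 CPM (adjusted p = 0.0245 without it and 0.0528 with it). Il11 averaged 17.4 ± 7.07 CPM (SD, n = 4) and 6.01 ± 1.19 CPM (SD, n = 3), with 11.8 CPM in replicate 4 (adjusted p = 0.0272 and 0.216). Among enzymes, Odc1, which makes polyamines, averaged 1119 ± 484 CPM (SD, n = 4) and 406 ± 35.5 CPM (SD, n = 3) (adjusted p = 0.0365), with 1115 CPM in replicate 4. Nnmt, nicotinamide N-methyltransferase, averaged 132 ± 34.3 CPM (SD, n = 4) and 39.5 ± 18.3 CPM (SD, n = 3) (adjusted p = 0.0135), with 157 CPM in replicate 4. Anxa8, Sntb2 and Dclk1 were also lower without replicate 4, with log2 fold changes of -2.06, -1.54 and -1.39. Il33 and Dclk1 missed the threshold narrowly with all libraries, at 0.0528 and 0.0548.

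The genes that were higher only without replicate 4 included Tcf12, an E protein that pairs with myogenic factors. It averaged 63.4 ± 4.13 CPM (SD, n = 4) in CD34Hi and 113 ± 8.67 CPM (SD, n = 3) in CD34Lo (log2 fold change 0.84, SE 0.14, adjusted p = 0.0112), against 49.7 CPM in replicate 4. Cd109, a surface antigen that binds transforming growth factor β, averaged 36.8 ± 6.47 CPM (SD, n = 4) and 98.5 ± 7.3 CPM (SD, n = 3) (log2 fold change 1.42, SE 0.21, adjusted p = 0.00285), against 23.1 CPM. Col8a1, a collagen chain, averaged 34.9 ± 3.08 CPM (SD, n = 4) and 88.7 ± 20.4 CPM (SD, n = 3) (log2 fold change 1.35, SE 0.18, adjusted p = 0.00107), against 37.3 CPM. In these 3 genes replicate 4 lay within or below the CD34Hi range. Zbtb18, AW551984, Dbn1, Rnf180, Isyna1, Skap2 and Arhgap18 rose by log2 fold changes of 0.90 to 1.63 in the same fit. Skap2 had its highest value in replicate 4 and an adjusted p of 0.0555 with all libraries.

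**Figure D2:**
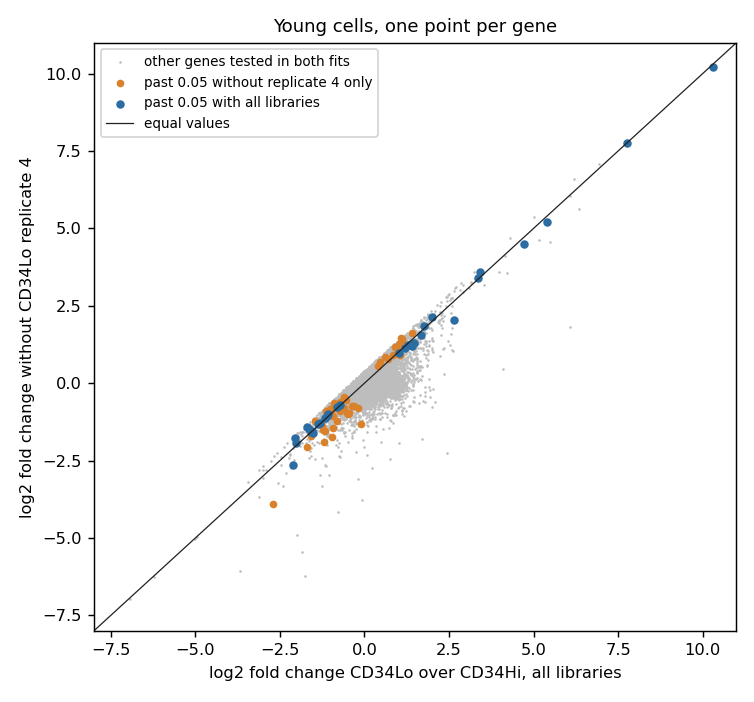
Log2 fold change of CD34Lo over CD34Hi in young cells with all libraries (horizontal axis) and without CD34Lo replicate 4 (vertical axis), 1 point per gene tested in both fits, with the line of equal values. The 30 genes called with all libraries, in blue, lie close to the line, and genes called only without replicate 4 are orange.

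The same library moved whole gene classes. Ribosomal protein genes summed to 24330 to 49088 CPM in CD34Hi, 25747 to 30197 CPM in CD34Lo replicates 1 to 3 and 107951 CPM in replicate 4. None of 77 tested passed, with a median log2 fold change of 0.56 with all libraries and -0.30 without replicate 4, beside 0.05 and -0.01 over all genes tested. Oxidative phosphorylation genes summed to 8514 to 13535 CPM in CD34Hi, 8857 to 10478 CPM in CD34Lo replicates 1 to 3 and 27716 CPM in replicate 4. None of 86 passed, and the median changed from 0.66 to -0.18. The sign of both medians thus changed with 1 library. CD34Hi replicate 1 was the next highest in ribosomal protein share, at 4.665% of its counts, against 2.44% to 3.06% in the other CD34Hi libraries. Whether CD34Hi replicate 1 lowered the medians without CD34Lo replicate 4 was not tested. Replicate 4 was also compared gene by gene with the other 3, among genes averaging at least 20 CPM over the 8 young libraries. Furthest above was Fabp4, a fatty acid binding protein of endothelium and fat (2066 CPM against a median of 102 of the other 3). It was followed by 1110008F13Rik, Metrnl and Cebpd. Those furthest below were Skiv2l (5.07 CPM against a median of 72.3), Ak4 and Otoa. Genes under the limit of 20 CPM were not ranked. Among these, S100a9 had 96.9 CPM in replicate 4 against a mean of 1.21 CPM in the other 3, and S100a8 had 74.8 against 1.44 CPM.

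The level of markers of other cell types in the sorted cells differed widely between the lists. Endothelial markers summed to 852 to 2276 CPM in CD34Hi, 567 to 1206 CPM in CD34Lo replicates 1 to 3 and 3253 CPM in replicate 4, and none of the 22 was at 0. In replicate 4, Fabp4 alone gave 2066 CPM of this sum. The other markers went both ways there. Tek (27 CPM) and Pecam1 (30.4 CPM) lay below the mean of the other CD34Lo libraries (101 and 44.3 CPM). Ly6c1 (334 CPM) and Cldn5 (156 CPM) lay above it (46.2 and 28.3 CPM). None of 22 tested passed, and 19 had a log2 fold change below 0 (median -0.63, and -0.89 without replicate 4 with all 22 below 0). Among them, Pecam1, the gene of CD31 used for depletion, averaged 80.7 CPM in CD34Hi and 40.8 CPM in CD34Lo (adjusted p = 0.701). CD34 and Calcrl are also made by endothelium. Cd34 fell by 1.33 and Calcrl by 1.78 on the log2 scale without replicate 4. The part of endothelial RNA in these differences was not tested.

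Immune markers summed to 84.6 to 207 CPM in CD34Hi, 49.6 to 180.0 CPM in CD34Lo replicates 1 to 3 and 483 CPM in replicate 4. Most of the sum in replicate 4 came from Lyz2, S100a9 and S100a8, at 218, 96.9 and 74.8 CPM. None of 19 tested passed, 10 of the 22 listed stayed under 5 CPM in every young library, and Cd3e was at 0 in all 8. Fibroblast and fibro-adipogenic markers summed to 4944 to 8796 CPM in CD34Hi, 5191 to 6270 CPM in CD34Lo replicates 1 to 3 and 6244 CPM in replicate 4. Some of them were high, with Gsn, Col3a1 and Dcn averaging 2308, 1499 and 1289 CPM in CD34Hi. Their averages in CD34Lo were 1442, 1408 and 1233 CPM. None of 24 passed, 18 had a log2 fold change below 0, and the median was -0.39 (-0.81 without replicate 4). None of 9 tenocyte, 11 Schwann and neural and 1 red blood cell gene tested passed, and 6 of 8 red blood cell genes, all globins, were at 0 in all young libraries. Of 13 genes of pericytes and smooth muscle 1 was called higher, Acta2, and the list summed to 954 to 1062 CPM in CD34Hi and 1007 to 1080 CPM in CD34Lo, replicate 4 included. Whether these cells contributed to any difference was not tested, and in bulk samples fewer cells of a type cannot be told apart from less RNA per cell.

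**Figure D3:**
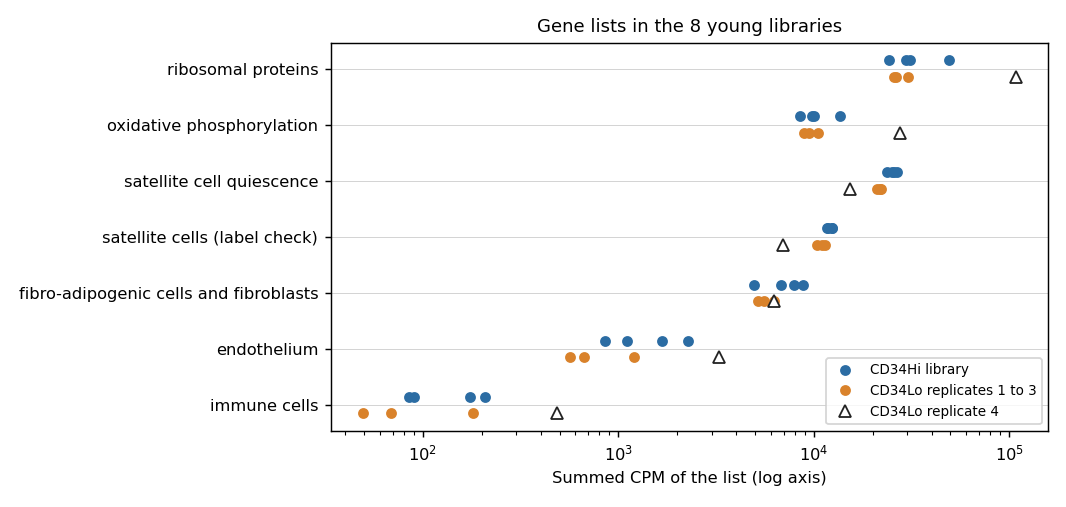
Summed CPM of 7 gene lists in each of the 8 young libraries on a log axis, with CD34Hi in blue, CD34Lo replicates 1 to 3 in orange and CD34Lo replicate 4 as an open triangle. The triangle is the highest point for ribosomal proteins, oxidative phosphorylation, endothelium and immune cells, and the lowest for both satellite cell lists. For endothelium, Fabp4 alone gives 2066 CPM of the triangle's sum.

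Lists of the muscle lineage gave few calls beside the genes above. Of 20 myogenic transcription factors tested, 1 was called higher, Myog, and 0 lower (median log2 fold change -0.03). Of 18 genes of myoblast fusion 1 was called higher, Tmem8c, and 0 lower (median 0.07). Of 30 genes of the early sarcomere and differentiation 3 were called higher and 0 lower, and the median was 0.90, but 0.18 without replicate 4. Acta1, the skeletal α-actin, averaged 67.6 CPM in CD34Hi and 194 CPM in CD34Lo (log2 fold change 1.52, adjusted p = 0.079). Ttn, which encodes titin, averaged 11.6 and 29.7 CPM (adjusted p = 0.368, and 0.0842 without replicate 4). Fast troponin and myosin light chain genes such as Tnnt3 and Mylpf were high in replicate 4 alone, so that the log2 fold change of Mylpf was 1.35 with it and -0.74 without it, with no call in either fit. Of 22 mature myofibre genes none was called (median 0.36, and 0.06 without replicate 4).

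The postsynaptic acetylcholine receptor genes, which muscle turns on as it differentiates, gave no call among 9 tested (median 0.33, and 0.29 without replicate 4). Chrna1, its α subunit, averaged 74.2 CPM in CD34Hi and 130.3 CPM in CD34Lo (log2 fold change 0.81, adjusted p = 0.302, and 0.145 without replicate 4). Of 35 genes linked to satellite cell quiescence, 1 was called higher, Pax3, and 0 lower (median -0.04). Without replicate 4, Chrdl2, a secreted antagonist of bone morphogenetic proteins, was called lower as well (log2 fold change -0.98, SE 0.21, adjusted p = 0.0346). Cdkn1c, which encodes the cell cycle inhibitor p57, averaged 6.51 CPM in CD34Hi and 39.6 CPM in CD34Lo (log2 fold change 2.60, adjusted p = 0.128, and 1.77 with 0.18 without replicate 4). Spry1, which restrains growth factor signalling in quiescent cells, averaged 289 ± 41.8 CPM (SD, n = 4) and 229 ± 66.5 CPM (SD, n = 4) (adjusted p = 0.726).

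Notch signalling holds satellite cells in quiescence. Of its 27 genes tested, none was called in either direction (median -0.18, and -0.23 without replicate 4). Its receptor gene Notch1 averaged 175 CPM in CD34Hi and 96.2 CPM in CD34Lo (adjusted p = 0.414), and the target Heyl averaged 149.8 and 93.6 CPM (adjusted p = 0.693). The title of the series names FoxO transcription factors, and 34 FoxO factors and targets were tested. None was called with all libraries (median 0.15), and Txnip, a thioredoxin inhibitor, was called higher without replicate 4 (log2 fold change 0.56, SE 0.11, adjusted p = 0.0272). Foxo1 averaged 26.6 ± 3.88 CPM (SD, n = 4) in CD34Hi and 25.4 ± 6.65 CPM (SD, n = 4) in CD34Lo (adjusted p = 0.97). Foxo3 averaged 2.67 ± 1.24 CPM (SD, n = 4) and 2.61 ± 0.629 CPM (SD, n = 4) (adjusted p = 0.989), and Foxo4 averaged 1.46 ± 0.708 CPM (SD, n = 4) and 1.19 ± 0.726 CPM (SD, n = 4) (adjusted p = 0.948). The standard errors of these 3 differences were 0.26, 0.48 and 0.71 on the log2 scale. Small changes of Foxo3 and Foxo4 were therefore not detectable at the low levels measured here.

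In the list of the IGF, PI3K and Akt pathway 1 of 33 genes was called lower, Igfbp4, and 0 higher (median 0.02). Of 7 receptors and ligands of the calcitonin family 1 was called lower, Calcrl, and 0 higher (median 0.40, and -0.33 without replicate 4). None of 38 cell cycle genes (median 0.04), 14 cell cycle inhibitors (median 0.30, and -0.04 without replicate 4) and 40 immediate early and dissociation stress genes (median 0.17, and -0.11 without replicate 4) was called. None of 41 matrix and adhesion genes was called (median -0.34, and -0.11 without replicate 4). Vtn, which encodes vitronectin, was called lower without replicate 4 (log2 fold change -0.81, SE 0.16, adjusted p = 0.027). The same gene was near the threshold with all libraries (adjusted p = 0.072).

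The effect of the gate was compared with that in adult cells by an interaction term, the young log2 fold change minus the adult one. It was called for 62 genes (0.482%), 61 with the young value lower (0.474%) and 1 with it higher (0.00778%). Of the 30 genes called in young cells 2 were among the 62, and for 29 of the 30 the adult value had the same sign. The adult change in the young direction was smaller for 20 of the 30, which were chosen by their young difference. Of the 28 without a called interaction, 6 had an unadjusted p under 0.05 in edgeR's test of it. An interaction that was not called does not show an equal effect at both ages. The adult gates did not overlap in 13 of the 15 higher genes (11% of all tested genes were separated that way) and in 14 of the 15 lower genes (10.1%). Myog averaged 0.124 ± 0.111 CPM (SD, n = 3) in adult CD34Hi and 28.6 ± 18.2 CPM (SD, n = 4) in adult CD34Lo, with an interaction of -0.03 (adjusted p = 0.988). Neu2 averaged 462 ± 106 CPM (SD, n = 3) and 116 ± 29.5 CPM (SD, n = 4), with an interaction of -0.03 (adjusted p = 0.994). Cd34 averaged 282 ± 22.7 CPM (SD, n = 3) and 168 ± 22.4 CPM (SD, n = 4), with an interaction of -0.62 (SE 0.24, adjusted p = 0.533).

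The exception in sign was Cyp26a1. It rose with low CD34 in young cells, as given above, while adult CD34Hi libraries had 372, 303 and 276 CPM and adult CD34Lo libraries 224, 182, 214 and 154 CPM (interaction 1.74, SE 0.28, adjusted p = 0.00654). All 8 young libraries lay below all 7 adult libraries for this gene. Cpz was higher in CD34Lo at both ages, but more so in adult cells, with 2.92, 2.7 and 1.71 CPM in adult CD34Hi and 45.2, 68.9, 54.1 and 85.8 CPM in adult CD34Lo (interaction -2.92, SE 0.51, adjusted p = 0.0114).

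In all 61 genes with the lower young value the adult CD34Lo libraries lay above the adult CD34Hi libraries, and in 55 the young gates overlapped. Among those averaging at least 5 CPM over the 15 libraries the largest interactions were those of Pcsk6 (interaction -5.47, adjusted p = 0.00438), a proprotein convertase, of Anxa8 (-4.57, 0.00438), the transcription factor gene Gata6 (-4.44, 0.0478), Lrrn4 (-3.89, 0.0126) and Tmem151a (-3.74, 0.0148). The set also held 4 keratin genes, and Msln and Upk3b, named here after their values were seen. Msln, the gene of mesothelin, averaged 90.7 ± 32.2 CPM (SD, n = 4) and 97.7 ± 12.6 CPM (SD, n = 4) in young CD34Hi and CD34Lo, and 61.3 ± 7.86 CPM (SD, n = 3) and 527 ± 163 CPM (SD, n = 4) in adult CD34Hi and CD34Lo (interaction -2.998, adjusted p = 0.00439). Upk3b, a uroplakin gene, averaged 62.8 ± 26 CPM (SD, n = 4) and 82.9 ± 4.36 CPM (SD, n = 4) in young and 41.7 ± 5.22 CPM (SD, n = 3) and 343 ± 118 CPM (SD, n = 4) in adult cells (interaction -2.63, adjusted p = 0.00643). Krt19, a keratin of epithelia and mesothelium, averaged 30.1 ± 12.2 CPM (SD, n = 4), 51.7 ± 29.6 CPM (SD, n = 4), 12.8 ± 5.88 CPM (SD, n = 3) and 156 ± 50.8 CPM (SD, n = 4) in the same order (interaction -2.83, adjusted p = 0.0404). Keratins and mesothelin are known from epithelium and mesothelium, for which no marker list was fixed, and the part of other cells in the interaction was not tested. In 58 of the 61 genes adult CD34Lo replicate 4 was the highest of its group, and the interaction was called for 43 genes without it. Without young CD34Lo replicate 4, 146 genes (1.14%) were called, 5 with the young value higher (0.039%) and 141 with it lower (1.1%), and all 62 were among them.

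**Figure D4:**
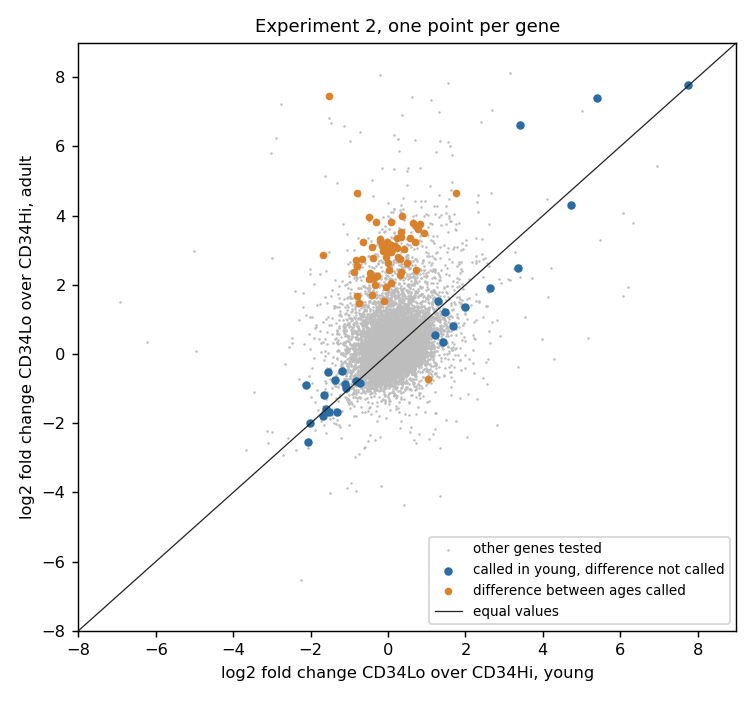
Log2 fold change of CD34Lo over CD34Hi in young (horizontal axis) and adult cells (vertical axis) of the same experiment, 1 point per tested gene, Tmem8c left out because both CD34Hi groups had no counts. Genes called in young cells without a called difference (blue) lie on either side of the line of equal values and have the same sign at both ages, and 61 of the 62 genes with a called difference between the ages (orange) lie above it.

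The 30 genes were then followed in 2 other experiments on young WT cells with the same gates, which share no library with this one. No test was made across experiments. In experiment 1, with 4 libraries per gate, 13 of the 15 higher genes had enough counts, and in 11 of them every CD34Lo library lay above every CD34Hi library, beside 2.87% of all tested genes. Of 14 lower genes with enough counts 6 were separated the same way, beside 1.85%. In experiment 3, with 3 CD34Hi and 2 CD34Lo libraries, 11 of 14 higher genes were separated, beside 13%, and 13 of 14 lower genes, beside 13.2%. None was separated in the opposite direction in either experiment. Part of this was in view when the comparison was chosen, and it is not independent support.

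In experiment 1, Actc1 stood at 0.0615 ± 0.0795 CPM in CD34Hi and 118 ± 50.7 CPM in CD34Lo (SD, n = 4 each), Acta2 at 92.9 ± 49.7 CPM in CD34Hi and 593 ± 200.2 CPM in CD34Lo, and Pax3 at 12.9 ± 1.76 CPM in CD34Hi and 27.2 ± 2.55 CPM in CD34Lo. Calcrl stood at 50.4 ± 15.4 CPM in CD34Hi and 12.3 ± 3.95 CPM in CD34Lo in the same libraries. Among the genes that overlapped there, Neu2 stood at 133 ± 49.6 CPM in CD34Hi and 63.8 ± 29.8 CPM in CD34Lo, Cyp26a1 at 12.4 ± 13.8 CPM in CD34Hi and 8.73 ± 8.96 CPM in CD34Lo and Bpgm at 8.83 ± 3.07 CPM in CD34Hi and 10.3 ± 5.56 CPM in CD34Lo. In experiment 3, Neu2 stood at 53.5 ± 17.1 CPM in CD34Hi and 17.6 ± 4.01 CPM in CD34Lo (SD, n = 3 and 2), Ryr3 at 124 ± 39.96 CPM in CD34Hi and 27.7 ± 14.5 CPM in CD34Lo and Arhgap20 at 188 ± 40.5 CPM in CD34Hi and 80.1 ± 19.6 CPM in CD34Lo, and these 3 were separated by gate. Bpgm, at 8.19 ± 2.33 CPM in CD34Hi and 7.02 ± 2.03 CPM in CD34Lo, overlapped in experiment 3 as well.

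**Figure D5:**
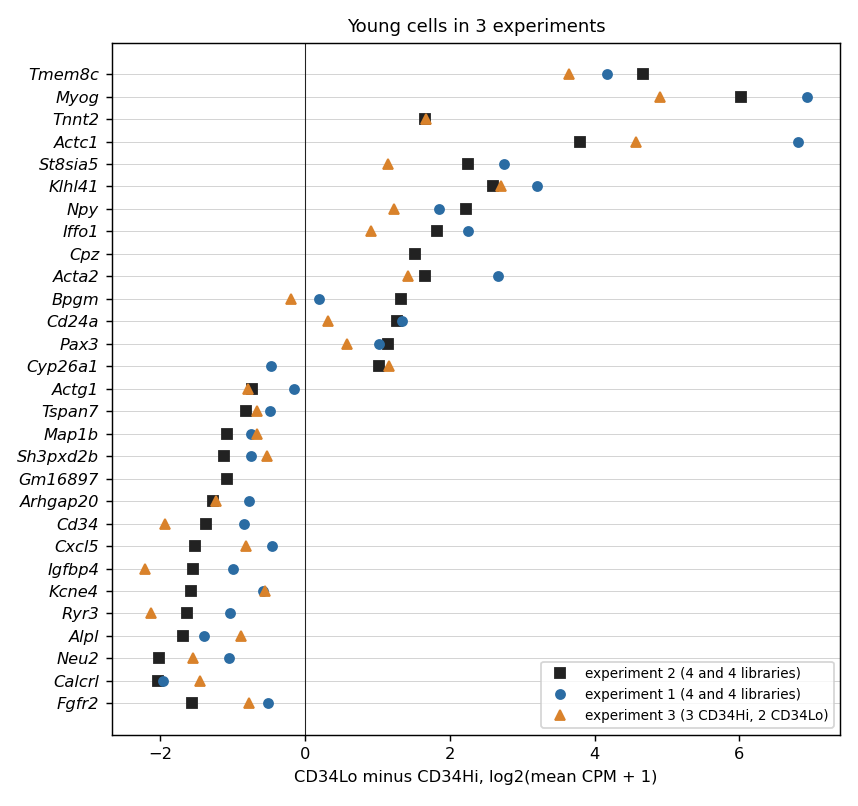
Difference of CD34Lo and CD34Hi as log2(mean CPM + 1) for 29 of the 30 called genes in young cells of experiments 1 (blue circles), 2 (black squares) and 3 (orange triangles), with genes of too few counts left out. Higher and lower genes keep their side in all experiments shown, except Bpgm in experiment 3 and Cyp26a1 in experiment 1.

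Of the 30 calls, 5 held in each omission of 1 young library, namely Tmem8c, Myog, Actc1, Cd34 and Neu2. Cd34 among them checks the labels only, since the gate was set on its protein. The count was 5 without CD34Hi replicate 3, and it was also 5 when only the 8 young libraries were fitted, where Tmem8c, Myog, Actc1, Klhl41 and Neu2 remained.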

How the data were processed

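RNA was amplified with a SMART-Seq v4 kit or extracted with a Qiagen kit, per the labels' protocols, and sequenced in the 15 libraries of experiment 2. The deposited values are raw read counts per gene symbol (24421 symbols, no scaling by the authors). The submitters' processing notes name the tools TopHat2 2.1.1, HTSeq, Partek 7.0, Trim Galore and bcl2fastq 2.17.1, and build mm10. For their order, the annotation, the strand setting and multiply mapped reads, the sources used here give nothing.

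Columns were matched to samples by experiment and library number. In R 4.3.3, edgeR 4.0.16 kept genes by filterByExpr (minimum count 10, minimum total 15), scaled libraries by TMM and fitted the quasi-likelihood model to all 15 libraries, with p-values adjusted by the Benjamini-Hochberg method at a threshold of 0.05. Amplified reads without molecular identifiers are not independent molecules, so the floor of 3 counts covers counting error only. The script was tested on simulated data. Every pair of libraries within a group differed by more than sampling noise (chi-square over its degrees of freedom at least 7.89). The comparison, the 24 gene lists and the rules for named genes were chosen with earlier results of these data known. Named genes were all those called, the 10 largest each way among genes called only without CD34Lo replicate 4, list members called in either fit, 10 set genes, the 5 largest called interactions each way among genes averaging at least 5 CPM (1 called interaction had the young value higher), and the 10 genes furthest from their group each way in replicate 4, and 1 called gene is not reported here by name. DESeq2 1.42.0 and limma 3.58.1 served as alternatives. Gene positions are from GENCODE vM21, and 22 of the 30 called genes matched a RefSeq promoter window.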

Additional observations from a re-analysis of the deposited data

Results flagged for a closer look

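Of 84 checks for a library far from its group 7 were met, and chance alone gives about 1 in 20. In CD34Lo replicate 4 the share of ribosomal protein counts was 8.73%, the share of the 50 largest genes was 21.2%, and Fgfr2 stood at 3.04 CPM, each the highest of its group. In CD34Hi, Tnnt2 stood at 0.19 CPM in replicate 4 and 0 in the other 3 libraries, Cyp26a1 at 48.9 CPM in replicate 4, Foxo1 at 32.4 CPM in replicate 3 and Foxo4 at 0.405 CPM in replicate 2.

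The effect of the gate differed between young and adult cells, by the interaction of edgeR's test, for 62 genes. Among them the young minus adult log2 fold change was -5.47 for Pcsk6, -4.57 for Anxa8, -4.44 for Gata6, -3.89 for Lrrn4, -3.74 for Tmem151a and -2.92 for Cpz, and 1.74 for Cyp26a1.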

How the results depend on the processing

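The count of 30 genes in young cells was 27 without the filter, 33 with at least 5 CPM in 3 libraries, 27 with RLE size factors and 28 with upper quartile scaling, which moved the median of all genes to 0.10. It was 108 with DESeq2 (45 higher, 63 lower), 199 with limma voom and quality weights (65 higher, 134 lower, CD34Lo replicate 4 having a weight of 0.102), 5 with only the 8 young libraries and 5 to 75 in the omissions of 1 library. Alternatives chosen after seeing the data gave 44 with only the young libraries without CD34Lo replicate 4, and 191 with DESeq2 without it. The interaction, 62 genes, gave 75, 61, 60 and 59 under the filters and scalings, 196 with DESeq2, 234 with voom, 26 to 146 in the omissions and, in the alternative chosen after seeing the data, 428 with DESeq2 without CD34Lo replicate 4. No called value of a named gene changed direction in any of these. With neighbouring library numbers as a replicate block, 6 genes were called in young cells and 22 for the interaction, and with the block and only the 8 young libraries 0 (edgeR, 470 at an unadjusted p under 0.05). The labels do not say that the numbers pair. Correlations of deviations within the pairs were -0.07, 0.19, 0.18 and -0.18 in young cells. CD34Hi replicates 2 and 3 correlated best with the CD34Lo library of their own pair, and replicates 1 and 4 did not. From so few libraries it cannot be told whether neighbouring numbers share an animal or a sort. Few counts limit what can be said of genes such as Tnnt2, Foxo3 and Foxo4. The cause of these changes in count was not tested.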
